A study of Mus musculus with 16 samples.

Results

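Allogeneic transplantation was set against syngeneic transplantation in splenic CD8+ and CD4+ donor T cells of mice, and the data below concern 1 quantity: how far the transplant difference in CD8 cells departed from that in CD4 cells. It is written here as the interaction, (allogeneic CD8 minus syngeneic CD8) minus (allogeneic CD4 minus syngeneic CD4), so a positive value means that a gene rose more, or fell less, in CD8 cells. It uses 10 of the 16 arrays of the study, taken by their titles: 3 of allogeneic splenic CD8 cells, 3 of syngeneic splenic CD8 cells, 2 of allogeneic splenic CD4 cells and 2 of syngeneic splenic CD4 cells. The other 6 arrays held ovarian cells of allogeneic recipients. All groups share a C57BL/6 strain background, female sex and a haematopoietic stem cell transplant. The arrays hold RNA of donor T cells that had been sorted a second time straight into Trizol, in small numbers, and the RNA was amplified before Cy3 labelling. The strains of donor and recipient beyond the C57BL/6 background, the conditioning and the time after transplantation are not given in the sources used here.

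Graft-versus-host disease arises when donor T cells recognise the tissue antigens of an allogeneic recipient. CD8 cells see peptides on MHC class I, and as effectors they kill with perforin, granzymes and Fas ligand, while CD4 cells see MHC class II and act mainly through cytokines. On activation both subsets enter the cell cycle, lose the receptors and transcription factors of naive cells, and gain inhibitory receptors such as PD-1 that restrain chronically stimulated cells.

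Values are log2 signals relative to each array's 75th percentile, so a value of 0 is the 75th percentile of all probes on that array. They compare a gene between groups, not genes with each other. A probe was kept where the scanner software rated it well above background throughout 1 or more of the 4 splenic groups. The 30513 kept probes stood for 22477 features, 13493 of them with a gene symbol. Differences are given ± their standard error. A gene was called, and is said to have risen or fallen, only where its Benjamini-Hochberg adjusted p over all features was under 0.05 in limma. Whether the replicates are different mice is not given in the labels, and the p-values therefore reflect spread among these arrays, which may be technical. The number of arrays, 2 in each CD4 group, limits the precision of every interaction, whose median standard error was 0.40 on the log2 scale.

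The arrays differed in brightness in a way that ran with the contrast. The 75th percentile of the signal was 450, 342 and 189 units on the allogeneic CD8 arrays, against 245, 221 and 156 on the syngeneic CD8 arrays. On the CD4 arrays it was 141 and 67.6 units after allogeneic transplantation, against 316 and 181 units after syngeneic transplantation. The interaction of this brightness was 1.89 on the log2 scale, and the second allogeneic CD4 array was the dimmest. Across features, which are not independent replicates, arrays within a group had Pearson r values of 0.937 to 0.992, lowest in the allogeneic CD4 pair. With features cut into 5 equal bins by mean signal, the median interaction was -0.32 in the dimmest bin and 0.06 in the brightest. The part of brightness in the results was not tested.

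The sorted subsets carried their own markers. Cd8a, a chain of the CD8 co-receptor, was well above background on all 6 CD8 arrays and on 0 of the 4 CD4 arrays. Cd4, the co-receptor of the other subset, had log2 signals of 1.42 to 2.05 in allogeneic and 2.12 to 2.45 in syngeneic CD8 cells, against 4.66 and 4.97 in allogeneic and 4.52 and 4.48 in syngeneic CD4 cells. It was therefore detected in CD8 cells as well, at lower level. Cd8b1, the partner chain of Cd8a, was well above background on all 4 CD4 arrays too, at -1.65 and -1.93 in allogeneic and -0.15 and 0.17 in syngeneic CD4 cells, against 5.36 to 6.74 on the CD8 arrays. Cd3e, a signalling chain of the T-cell receptor complex, showed no called interaction (-0.10 ± 0.28, 95% interval -0.71 to 0.52).

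The interaction was called for 2745 features, 12.2% of those tested, of which 1216 were positive (5.41%) and 1529 negative (6.8%). Among them 940 positive and 668 negative features carry a symbol. The median size of a called interaction was 1.42, and 81.4% were at least 1 on the log2 scale, a doubling. In the same fit, allogeneic minus syngeneic was called for 39% of features in CD8 cells (18.9% higher, 20% lower). In CD4 cells it was called for 16.4% (10.5% higher, 5.86% lower). The CD4 groups held fewer arrays, and the median standard error was 0.31 in CD4 cells, against 0.25 in CD8 cells. These shares therefore do not by themselves show a wider response in CD8 cells. The count of calls moved with single arrays: it was 1332 without the first syngeneic CD4 array and 4249 without allogeneic CD8 array 3. Fitting the 10 splenic arrays alone gave 1015 calls.

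The commonest form of interaction was a change in CD8 cells with no called change in CD4 cells, seen for 1339 features (48.8% of the calls). The converse, a called change in CD4 cells only, was seen for 621 (22.6%). Both subsets changed in the same direction, further in CD8 cells, for 435 features (15.8%), and 369 of these were positive. Their median transplant difference was 3.51 in CD8 cells and 1.44 in CD4 cells. The subsets changed in opposite directions for 185 features (6.74%), of which 43 were positive and 142 negative. A change called in 1 subset and missed in the other is not by itself a difference. Each feature counted here also had its interaction called. The lower precision of the CD4 difference favoured changes called in CD8 cells only, so the shares of these forms do not compare how widely the subsets responded. The same limit holds for counts below of genes that rose or fell in each subset.

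**Figure D1:**
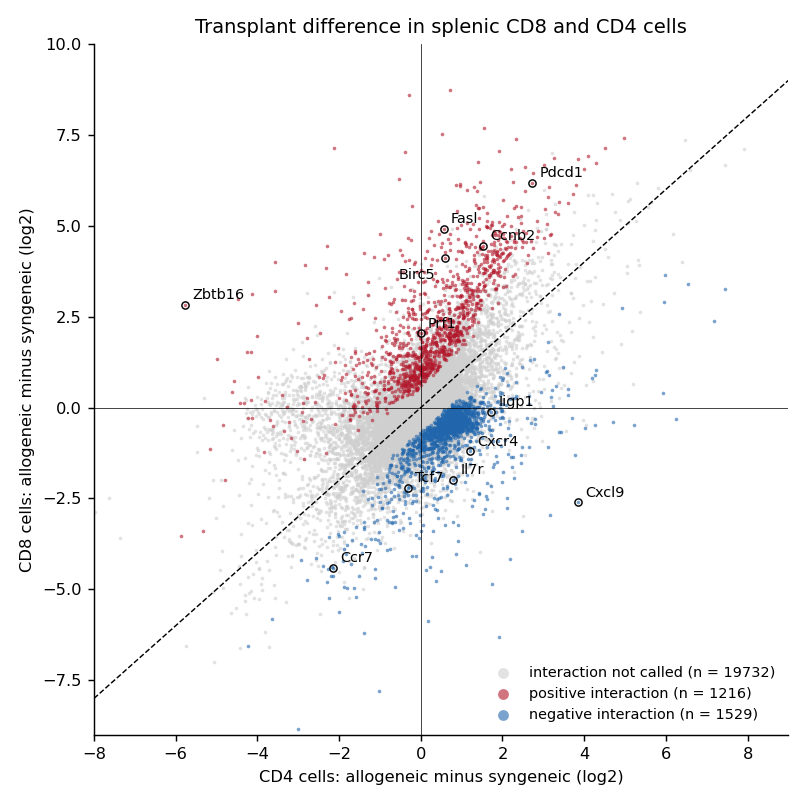
The transplant difference in CD8 cells (vertical axis, allogeneic minus syngeneic, log2) is plotted against that in CD4 cells (horizontal axis, same scale) for 22477 features, and the dashed line marks equal differences. Red points are the 1216 positive and blue points the 1529 negative interactions, with 12 genes of the text circled: Pdcd1, Fasl, Ccnb2 and Birc5 lie above the line, and Cxcl9, Cxcr4, Il7r, Tcf7, Ccr7 and Iigp1 below it.

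Genes of cell division formed the most uniform group. Of 29 tested genes of mitosis, 23 (79.3%, against 5.41% of all features) had a called positive interaction and 0 a negative one. Their median transplant difference was 4.19 in CD8 cells and 1.61 in CD4 cells, against medians of -0.16 and 0.03 over all features. Mitosis genes rose in both subsets, 28 of 29 in CD8 cells and 19 of 29 in CD4 cells, and the interaction describes how much further they rose in CD8 cells. Called members had interactions between 1.64 (Cdk1, the kinase that drives entry into mitosis) and 4.86 (Bub1b, a spindle checkpoint kinase). The 6 not called, Ccnb1, Aurkb, Cdc20, Cdca8, Kif15 and Hmmr, had interactions between 0.40 and 2.46, also positive. The count lay between 23 and 25 when each array was left out in turn and was 20 with the 10 splenic arrays alone.

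Promoters of these genes are shown because the members moved together. In mammals many late cell cycle genes carry CCAAT boxes, bound by NF-Y, and the cell cycle genes homology region TTTGAA, bound by the MuvB complex. The sequences are from RefSeq (mouse build GRCm38.p6), 220 bases before to 30 bases after the start of the gene, 5′ to 3′ on the gene's strand, and capitals mark CCAAT or TTTGAA or their reverse complements ATTGG and TTCAAA. Ccnb2 lies at chr9:70421525-70421774 (minus strand), Ube2c at chr2:164769709-164769958 (plus strand), Mki67 at chr7:135716350-135716599 (minus strand) and Aurka at chr2:172370541-172370790 (minus strand).
Ccnb2: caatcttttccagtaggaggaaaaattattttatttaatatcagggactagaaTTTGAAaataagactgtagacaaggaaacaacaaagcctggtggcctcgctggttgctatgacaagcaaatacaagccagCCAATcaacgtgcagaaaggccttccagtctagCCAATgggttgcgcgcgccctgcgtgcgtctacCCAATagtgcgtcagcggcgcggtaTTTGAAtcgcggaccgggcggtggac
Ube2c: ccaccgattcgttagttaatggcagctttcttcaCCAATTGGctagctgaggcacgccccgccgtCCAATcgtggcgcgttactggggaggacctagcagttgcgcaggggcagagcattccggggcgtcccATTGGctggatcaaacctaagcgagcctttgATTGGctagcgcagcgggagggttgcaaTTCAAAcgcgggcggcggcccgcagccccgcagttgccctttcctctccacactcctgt
Mki67: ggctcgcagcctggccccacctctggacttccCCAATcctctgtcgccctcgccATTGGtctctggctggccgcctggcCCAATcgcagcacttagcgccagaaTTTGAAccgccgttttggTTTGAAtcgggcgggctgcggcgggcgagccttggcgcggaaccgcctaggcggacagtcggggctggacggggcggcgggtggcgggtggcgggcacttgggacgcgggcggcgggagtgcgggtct
Aurka: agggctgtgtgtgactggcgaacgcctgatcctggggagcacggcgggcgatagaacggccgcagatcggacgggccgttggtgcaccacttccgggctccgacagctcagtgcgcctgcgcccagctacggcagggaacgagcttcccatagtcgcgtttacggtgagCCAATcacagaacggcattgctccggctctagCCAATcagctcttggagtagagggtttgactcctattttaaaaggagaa
Ccnb2, Ube2c and Mki67 hold both elements in this window and Aurka holds CCAAT alone. The Birc5 window of the same length, not printed, holds neither. In Ube2c a match to CCAAT on each strand overlaps, as CCAATTGG.

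The table of promoters held 25 of the 30 mitosis genes. TTTGAA on either strand was found in 15 of the 25 (60%), against 15.3% of 27025 promoters of the same length. CCAAT was found in 20 of 25 (80%), against 34%, and both together in 52%, against 5.38%. In the 10770 promoters of genes tested for the interaction, the shares were 10.1% for TTTGAA, 35.7% for CCAAT and 3.95% for both. Among mitosis genes with a called interaction 10 of 19 held TTTGAA, and among tested mitosis genes without a call 4 of 5 did. These are matches of letters and not sites shown to be bound, and the absence of TTTGAA from the Aurka window says only that these letters are not in it.

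Ccnb2, the cyclin B2 that activates Cdk1, had log2 signals of 5.80, 5.70 and 5.37 in allogeneic CD8 cells, against 0.98, 1.14 and 1.38 in syngeneic CD8 cells. In CD4 cells it had 3.58 and 3.20 after allogeneic transplantation, against 1.83 and 1.90 after syngeneic transplantation. Allogeneic cells were thus high in both subsets with no overlap, yet syngeneic CD8 cells lay below syngeneic CD4 cells and allogeneic CD8 cells above allogeneic CD4 cells. The difference was 4.46 ± 0.16 in CD8 cells and 1.52 ± 0.20 in CD4 cells, and the interaction 2.93 ± 0.26 (adjusted p = 7.1e-05). Ube2c, the E2 enzyme of the anaphase-promoting complex, ran the same way, with an interaction of 2.98 ± 0.32 (adjusted p = 0.000288). Its values were 3.83, 3.84 and 3.39 in allogeneic and -1.34, -1.23 and -0.79 in syngeneic CD8 cells, and 1.57 and 1.29 in allogeneic and -0.65 and -0.15 in syngeneic CD4 cells. Within each slide the interaction of Ube2c was 2.96 on the first and 2.96 on the second, and that of Ccnb2 was 3.03 and 2.80.

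Birc5, the inhibitor of apoptosis that also guides chromosome segregation as survivin, had 6.85, 6.82 and 6.62 in allogeneic CD8 cells, against 2.33, 2.77 and 2.82 in syngeneic CD8 cells. Allogeneic CD4 cells had 3.39 and 4.37, against 3.19 and 3.39 in syngeneic CD4 cells. The CD4 groups met at 3.39, so only the CD8 groups stood clearly apart. The rise of 4.12 ± 0.23 was called in CD8 cells, that of 0.60 ± 0.28 in CD4 cells was not (adjusted p = 0.169), and the interaction was 3.52 ± 0.36 (adjusted p = 0.000307). Aurka, the kinase that builds the spindle poles, had an interaction of 2.28 ± 0.26 (adjusted p = 0.000397). Mki67, the proliferation antigen Ki-67, rose in both subsets, by 3.84 ± 0.22 in CD8 cells and 1.88 ± 0.27 in CD4 cells (interaction 1.96 ± 0.35, adjusted p = 0.00543).

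DNA replication genes had positive interactions in 19 of 27 tested members (70.4%, against 5.41% of all features) and a negative one in 0. Their median transplant difference was 2.16 in CD8 cells and 0.62 in CD4 cells. In CD8 cells 25 of 27 rose, and in CD4 cells 11 of 27. Called interactions lay between 0.92 (Rfc4, a clamp loader subunit) and 4.62 (E2f1, a transcription factor of the start of S phase). This count was less stable than that of mitosis: it was 7 without the second syngeneic CD4 array, 23 without the first allogeneic CD4 array, and 4 with the 10 splenic arrays alone.

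Mcm5, a subunit of the replicative helicase, had 4.71, 4.72 and 4.24 in allogeneic CD8 cells, against 2.57, 2.28 and 2.34 in syngeneic CD8 cells, and 3.08 and 2.30 in allogeneic CD4 cells, against 2.30 and 2.08 in syngeneic CD4 cells. The CD8 groups stood apart, while the lower allogeneic CD4 value equalled the higher syngeneic one to 2 decimals. Its interaction was 1.66 ± 0.32 (adjusted p = 0.00737). Mcm4, another helicase subunit, rose by 1.41 ± 0.22 in CD8 cells and had a difference of -0.55 ± 0.27 in CD4 cells, not called (interaction 1.95 ± 0.35, adjusted p = 0.00649). Dut, which keeps uracil out of DNA, rose in both subsets, by 2.50 ± 0.14 in CD8 cells and 1.28 ± 0.18 in CD4 cells (interaction 1.23 ± 0.23). Rrm2, the small subunit of ribonucleotide reductase, had an interaction of 1.98 ± 0.39 (adjusted p = 0.00863). The Rrm2 interaction was lost with the 10 splenic arrays alone (adjusted p = 0.0538).

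The ovarian arrays, which do not enter the interaction, allow the allogeneic subsets to be compared in a second tissue. There 16 of 29 mitosis genes and 12 of 27 replication genes were higher in CD8 than in CD4 cells and 0 were lower, with 8.55% of all features called higher and 8.92% lower. The median difference of mitosis genes was 0.82 between ovarian CD8 and CD4 cells. In the spleen it was 1.94 between the allogeneic subsets, where 29.7% of all features differed (15.4% higher and 14.3% lower in CD8 cells). It was -0.65 between the syngeneic subsets, where 4.29% of features differed (1.33% higher and 2.96% lower).

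**Figure D2:**
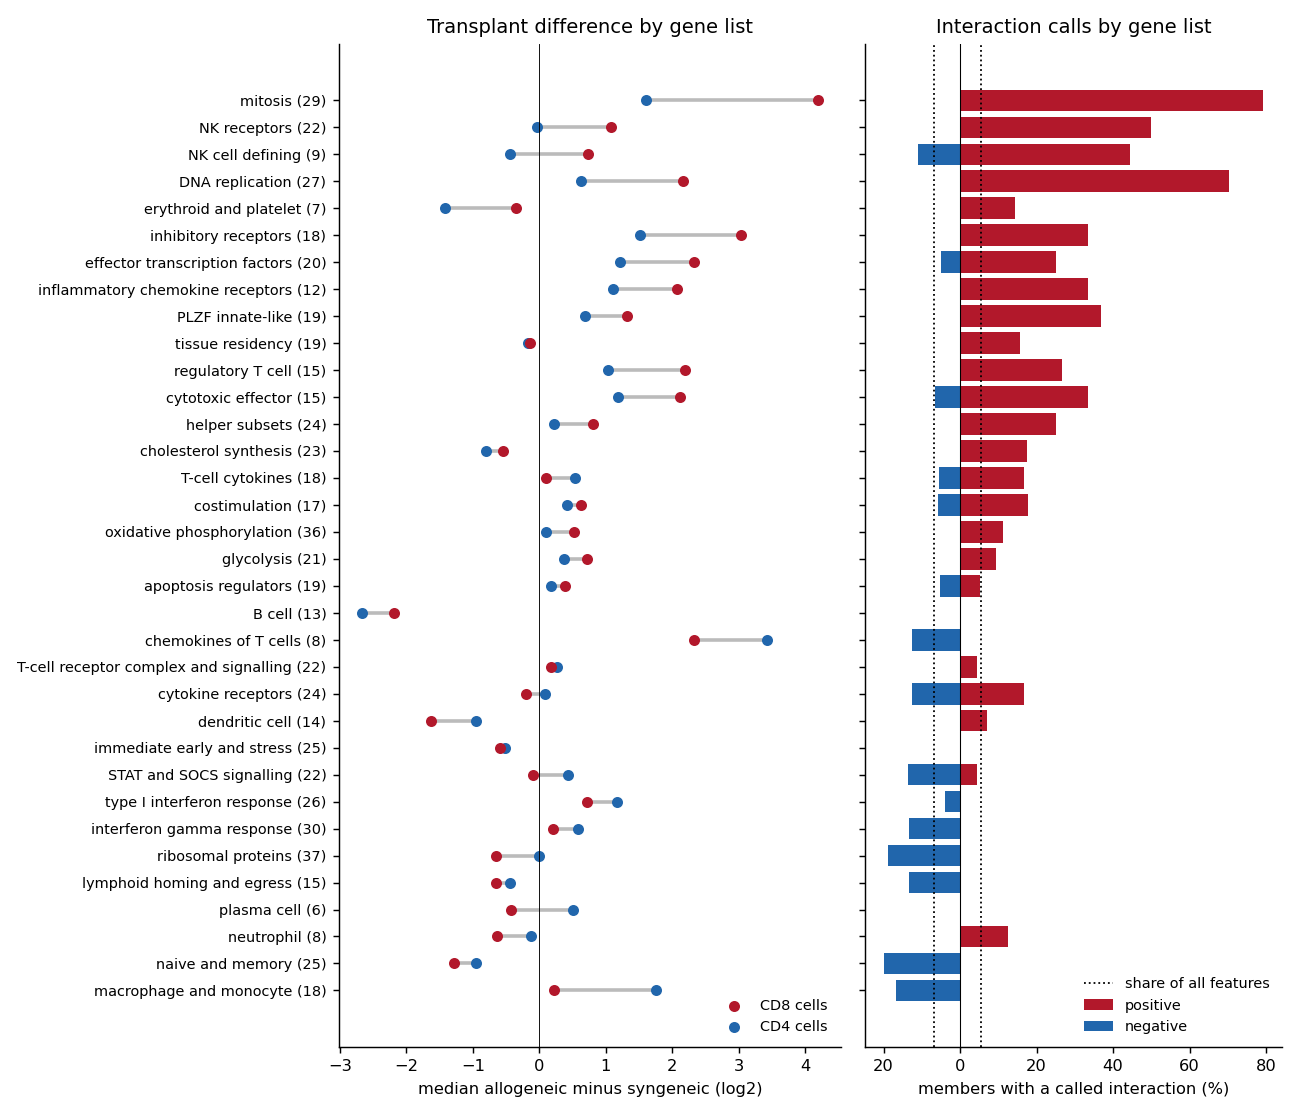
Left, the median transplant difference (allogeneic minus syngeneic, log2) of each gene list is given for CD8 cells (red) and CD4 cells (blue), with the number of tested genes in brackets, sorted by the median interaction. Right, bars give the percentage of members with a called positive (red, to the right) or negative (blue, to the left) interaction, and dotted lines give the shares of all features, 5.41% and 6.8%: mitosis, DNA replication and NK receptors have the longest positive bars.

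Genes of target killing differed in the same direction for 5 of 15 tested members (Prf1, Fasl, Gzma, Gzmb and Gzmk) and in the opposite direction for 1 (Nkg7). Called were 40% of the list, against 12.2% of all features. The median transplant difference of the list was 2.11 in CD8 cells and 1.18 in CD4 cells. Prf1, the pore-forming perforin, had 4.48, 4.44 and 4.19 in allogeneic CD8 cells, against 2.57, 2.26 and 2.12 in syngeneic CD8 cells. Allogeneic CD4 cells had 0.89 and 0.95, against 1.12 and 0.72 in syngeneic CD4 cells, and these groups overlapped. It rose by 2.05 ± 0.15 in CD8 cells, with no called difference in CD4 cells (adjusted p = 0.999), and the interaction was 2.05 ± 0.24 (adjusted p = 0.000462).

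Fasl, the ligand that triggers the death receptor Fas, had 4.56, 4.41 and 4.52 in allogeneic CD8 cells, against -0.20, -0.04 and -1.02 in syngeneic CD8 cells, and 2.63 and 1.28 in allogeneic CD4 cells, against 1.55 and 1.23 in syngeneic CD4 cells. Syngeneic CD8 cells were the lowest group and allogeneic CD8 cells the highest, and the CD4 groups overlapped. Its interaction was 4.35 ± 0.52 (adjusted p = 0.000521). Gzmb, granzyme B, rose in both subsets, by 7.41 ± 0.43 in CD8 cells and 4.98 ± 0.48 in CD4 cells. The spot of the first allogeneic CD8 array carried an outlier flag, so that value was left out of its fit. The Gzmb interaction of 2.43 ± 0.64 (adjusted p = 0.0333) was lost without any of 5 single arrays (highest adjusted p = 0.126, without the first syngeneic CD4 array).

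Gzma, granzyme A, had 8.41, 8.53 and 9.36 in allogeneic CD8 cells, against 2.49, 2.65 and 2.80 in syngeneic CD8 cells. In CD4 cells it spread widely, with 4.21 and 1.03 after allogeneic and 2.74 and 0.80 after syngeneic transplantation. Its interaction of 5.27 ± 1.13 (adjusted p = 0.0126) was lost without the first syngeneic CD4 array (adjusted p = 0.0615). That of Gzmk, granzyme K (2.09 ± 0.50, adjusted p = 0.0206), was lost without the first syngeneic (0.0947) or the second allogeneic CD4 array (0.055). Nkg7, a granule membrane protein of cytotoxic cells, rose by 2.59 ± 0.15 in CD8 cells and by 3.38 ± 0.18 in CD4 cells (interaction -0.79 ± 0.24, adjusted p = 0.0474). It was the 1 negative call of the cytotoxic list, which had 0 without any of 6 of the 10 arrays, after quantile normalization, with the 10 splenic arrays alone and with array weights. The list's positive calls numbered 2 without the first syngeneic and 3 without the second allogeneic CD4 array, and 2 with the 10 splenic arrays alone. The mean of Nkg7 was 8.72 in allogeneic and 6.14 in syngeneic CD8 cells, against 6.70 in allogeneic and 3.32 in syngeneic CD4 cells, so syngeneic CD4 cells were the lowest group. Ifng, interferon gamma, rose in both subsets, by 3.75 ± 0.54 in CD8 cells and 2.11 ± 0.67 in CD4 cells, and its interaction of 1.64 ± 0.86 was not called (95% interval -0.23 to 3.51).

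Inhibitory receptors had positive interactions in 6 of 18 tested members (Pdcd1, Tigit, Cd160, Cd200r1, Klrg1 and Cd96) and a negative one in 0. Of these receptors 33.3% were called positive, against 5.41% of all features. Their median transplant difference was 3.04 in CD8 cells and 1.51 in CD4 cells, and 13 rose in CD8 cells and 10 in CD4 cells. Pdcd1, which encodes PD-1, had 6.63, 6.73 and 6.55 in allogeneic CD8 cells, against 0.76, 0.90 and -0.29 in syngeneic CD8 cells, and 5.27 and 4.99 in allogeneic CD4 cells, against 2.10 and 2.70 in syngeneic CD4 cells. It rose in both subsets without overlap, and the larger CD8 difference of 6.18 ± 0.29 against 2.73 ± 0.35 came from both a higher allogeneic and a lower syngeneic level (interaction 3.45 ± 0.45, adjusted p = 0.000906).

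Tigit, a receptor for the nectin-like ligand CD155, had 2.64, 2.58 and 2.56 in allogeneic CD8 cells, against -3.66, -4.12 and -4.13 in syngeneic CD8 cells, and 2.26 and 1.78 in allogeneic CD4 cells, against -1.97 and -1.98 in syngeneic CD4 cells. Allogeneic levels of the subsets were close, and the syngeneic CD8 group, well above background on 1 of 3 arrays, was the lowest. Its interaction was 2.57 ± 0.29 (adjusted p = 0.000397), and 1.1 where all signals were raised to a common floor. Klrg1, a receptor of terminally differentiated effectors, rose by 5.49 ± 0.51 in CD8 cells, and its CD4 difference of 1.42 ± 0.63 was not called. Its interaction of 4.07 ± 0.81 was lost with the 10 splenic arrays alone (adjusted p = 0.0508), where the Klrg1 interaction kept its value, and on the first slide alone (0.102). Cd200r1, the receptor for CD200, had an interaction of 3.37 ± 0.53 (adjusted p = 0.00266), with a CD8 difference of 3.71 ± 0.33 and a CD4 difference of 0.35 ± 0.41.

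Cd160, a receptor for HVEM carried by cytotoxic and natural killer cells, moved in opposite directions. It had 2.53, 2.23 and 1.65 in allogeneic CD8 cells, against -1.73, -1.90 and -1.50 in syngeneic CD8 cells. In CD4 cells it was not well above background after allogeneic transplantation (-4.79 and -2.87), against -1.86 and -1.17 after syngeneic transplantation. It rose by 3.85 ± 0.39 in CD8 cells and was at least 3.27-fold lower in allogeneic CD4 cells (adjusted p = 0.00663). Havcr2 (TIM-3), Lag3 and Ctla4, other inhibitory receptors of activated T cells, rose in both subsets, by 3.01 ± 0.54, 5.59 ± 0.54 and 3.77 ± 0.42 in CD8 cells and by 2.31 ± 0.66, 3.28 ± 0.66 and 1.78 ± 0.51 in CD4 cells. Their interactions were not called: 0.70 ± 0.85, 2.31 ± 0.85 and 1.99 ± 0.66, with 95% intervals of -1.15 to 2.55, 0.45 to 4.17 and 0.56 to 3.43.

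**Figure D3:**
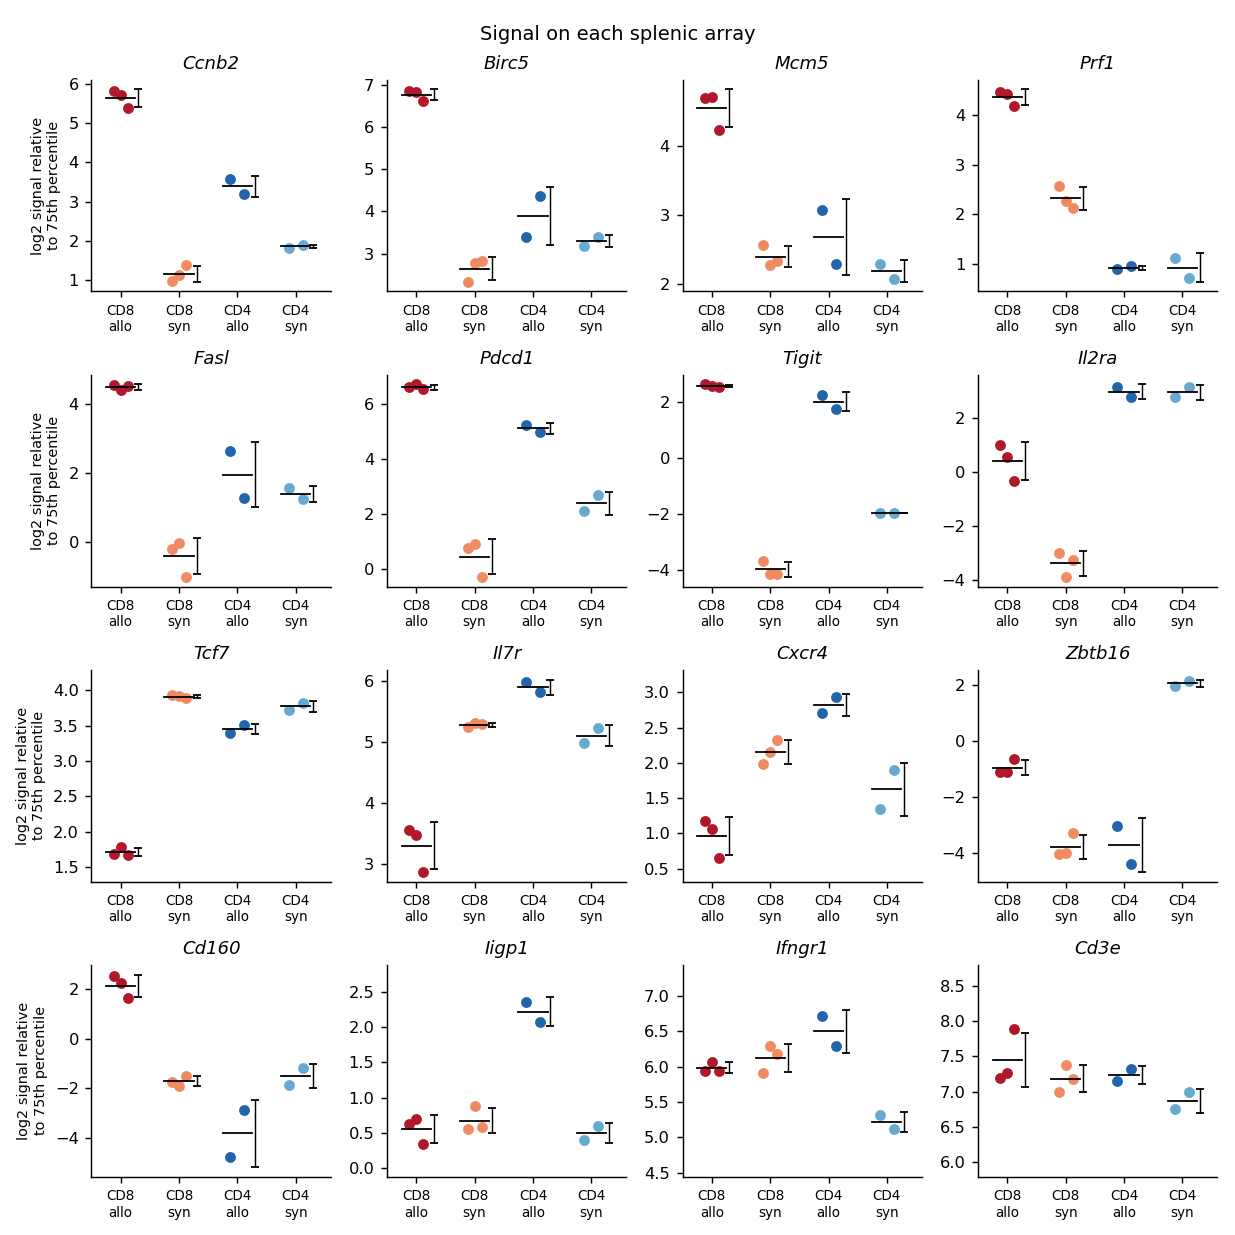
Each panel gives 1 gene, with the log2 signal relative to the array's 75th percentile on the vertical axis, 1 point per array, a line at each group's mean and a bracket for ± 1 SD. Groups run from allogeneic and syngeneic CD8 cells (3 arrays each) to allogeneic and syngeneic CD4 cells (2 arrays each): Ccnb2, Fasl and Pdcd1 have the lowest values in syngeneic CD8 cells, and Tcf7 is low only in allogeneic CD8 cells.

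Transcription factors of effector cells had 5 positive interactions (Ikzf2, Irf4, Prdm1, Rora and Tox) and 1 negative one (Eomes) among 20 tested. The share called was 30%, against 12.2% of all features. Without the second allogeneic CD4 array 8 were positive. Prdm1, which encodes Blimp-1, the driver of terminal effector differentiation, had 2.89, 2.89 and 3.13 in allogeneic CD8 cells, against -1.24, -1.20 and -1.84 in syngeneic CD8 cells, and 2.37 and 2.26 in allogeneic CD4 cells, against -0.03 and 0.03 in syngeneic CD4 cells. It rose in both subsets without overlap, by 4.40 ± 0.25 in CD8 and 2.32 ± 0.30 in CD4 cells (interaction 2.08 ± 0.39, adjusted p = 0.00691). Irf4, induced by antigen receptor signalling, rose by 2.86 ± 0.25 in CD8 cells, and its CD4 difference was 0.46 ± 0.30 (interaction 2.39 ± 0.39). Tox, a factor of chronically stimulated T cells, rose by 3.27 ± 0.18 in CD8 cells and 1.83 ± 0.22 in CD4 cells (interaction 1.45 ± 0.28, adjusted p = 0.0079). The Tox interaction was lost with array weights (adjusted p = 0.0507).

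Eomes ran the other way. It had 5.43, 5.35 and 5.71 in allogeneic CD8 cells, against 3.46, 3.63 and 3.99 in syngeneic CD8 cells, and 3.05 and 3.18 in allogeneic CD4 cells, against -0.23 and 0.24 in syngeneic CD4 cells. This T-box factor of cytotoxic and memory cells was higher in CD8 cells under both transplants, but rose further in CD4 cells, by 3.11 ± 0.25 against 1.80 ± 0.20 in CD8 cells. The Eomes interaction of -1.31 ± 0.32 (adjusted p = 0.0225) was lost without the second allogeneic CD8 array (0.0518) or the first syngeneic CD4 array (0.103). Tbx21 (T-bet), the related T-box factor, had an interaction of 1.66 ± 0.53 that was not called (adjusted p = 0.0597).

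Among genes of naive and memory cells 5 of 25 tested had a negative interaction (Tcf7, Il7r, Ccr7, Dapl1 and Lef1) and 0 a positive one. The share called negative was 20%, against 6.8% of all features. In CD8 cells 19 of 25 fell, and in CD4 cells 10. Tcf7, the TCF-1 factor of naive and self-renewing T cells, had 1.68, 1.78 and 1.67 in allogeneic CD8 cells, against 3.93, 3.92 and 3.89 in syngeneic CD8 cells, and 3.40 and 3.51 in allogeneic CD4 cells, against 3.72 and 3.83 in syngeneic CD4 cells. Allogeneic CD8 cells alone were low, the CD4 groups differing by -0.32 ± 0.15 (adjusted p = 0.178). The fall in CD8 cells was -2.20 ± 0.12 and the interaction -1.88 ± 0.20 (adjusted p = 0.000249), with -1.88 on the first slide and -1.92 on the second.

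Il7r, the receptor for the survival cytokine IL-7, had 3.56, 3.47 and 2.87 in allogeneic CD8 cells, against 5.24, 5.31 and 5.30 in syngeneic CD8 cells, and 5.99 and 5.82 in allogeneic CD4 cells, against 4.99 and 5.23 in syngeneic CD4 cells. Allogeneic CD8 cells were the lowest group and allogeneic CD4 cells the highest, with no overlap. It fell by 1.98 ± 0.24 in CD8 cells, and the CD4 difference of 0.80 ± 0.29 was not called (adjusted p = 0.081). The interaction was -2.78 ± 0.37 (adjusted p = 0.0011). Ccr7, which guides naive cells into lymphoid tissue, fell in both subsets, by 4.41 ± 0.22 on the log2 scale in CD8 cells and by 2.14 ± 0.27 in CD4 cells (interaction -2.27 ± 0.35, adjusted p = 0.00257). Dapl1, a gene of naive CD8 cells, fell by 4.40 ± 0.21 in CD8 cells and by 2.18 ± 0.25 in CD4 cells (interaction -2.22 ± 0.33). The egress receptor S1pr1 had an interaction of -1.29 ± 0.41 that was not called (adjusted p = 0.0588).

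Cxcr4, the receptor for CXCL12, which holds cells in bone marrow and lymphoid tissue, changed in opposite directions. It had 1.17, 1.07 and 0.65 in allogeneic CD8 cells, against 1.99, 2.16 and 2.33 in syngeneic CD8 cells, and 2.71 and 2.93 in allogeneic CD4 cells, against 1.35 and 1.89 in syngeneic CD4 cells. No groups of a subset overlapped. It fell by 1.19 ± 0.19 in CD8 cells, rose by 1.20 ± 0.24 in CD4 cells and had an interaction of -2.39 ± 0.30 (adjusted p = 0.000736).

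Chemokine receptors of inflamed tissue had 4 positive interactions among 12 tested (Cxcr6, Ccr6, Cx3cr1 and Ccrl2) and 0 negative ones. The share called positive was 33.3%, against 5.41% of all features. The positive count was 2 without the first or the second allogeneic CD8 array and with the 10 splenic arrays alone. The Ccrl2 interaction of 2.39 (adjusted p = 0.0334) was lost without any of 6 single arrays (highest 0.121, without the second syngeneic CD4 array). Cxcr6, the receptor for CXCL16, rose by 2.67 ± 0.19 in CD8 cells and 1.03 ± 0.24 in CD4 cells (interaction 1.63 ± 0.31, adjusted p = 0.00686). Ccr6, the receptor for CCL20, had 3.02, 2.95 and 2.75 in allogeneic CD8 cells, against -0.16, -0.25 and 0.30 in syngeneic CD8 cells, and 3.37 and 3.52 in allogeneic CD4 cells, against 3.66 and 3.69 in syngeneic CD4 cells. Only syngeneic CD8 cells were low, and the interaction was 3.17 ± 0.46 (adjusted p = 0.00176). Cx3cr1, the fractalkine receptor of effector cells, rose by 5.47 ± 0.39 in CD8 cells and 3.05 ± 0.47 in CD4 cells, but its interaction of 2.43 ± 0.61 (adjusted p = 0.0254) was lost without any of 5 single arrays (highest 0.0813, without the first syngeneic CD4 array). Cxcr3, the receptor for CXCL9 and CXCL10, rose nearly equally, by 1.85 ± 0.28 in CD8 cells and 1.91 ± 0.35 in CD4 cells, with an interaction of -0.06 ± 0.45 (95% interval -1.03 to 0.91) whose sign changed under 7 alternatives.

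Some genes that CD4 cells carried under both transplants rose in CD8 cells with no called change in CD4 cells. Il2ra (CD25), the high-affinity chain of the IL-2 receptor, had 1.02, 0.57 and -0.34 in allogeneic CD8 cells, against -2.99, -3.88 and -3.25 in syngeneic CD8 cells, and 3.18 and 2.80 in allogeneic CD4 cells, against 2.78 and 3.17 in syngeneic CD4 cells. The CD4 groups overlapped and lay above every CD8 array. The CD8 rise was 3.79 ± 0.35 and the interaction 3.78 ± 0.55 (adjusted p = 0.00181). Il1rl1, the IL-33 receptor ST2, had the same form (4.86 ± 0.38 in CD8 cells, 0.26 ± 0.46 in CD4 cells, interaction 4.60 ± 0.59). So had Ikzf4, an Ikaros-family factor of regulatory T cells (2.19 ± 0.28 in CD8 cells, -0.18 ± 0.34 in CD4 cells, interaction 2.36 ± 0.44). Another Il1rl1 probe gave an interaction of 1.03, and other Ikzf4 probes gave 0.48 and 2.17.

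These 3 genes are known from CD4 regulatory T cells. In the list of such genes 4 of 15 tested had a positive interaction (Ikzf2, Ikzf4, Il2ra and Nrp1) and 0 a negative one. The share called positive was 26.7%, against 5.41% of all features. Foxp3, the factor that defines CD4 regulatory T cells, rose by 2.20 ± 0.36 in CD8 cells and had a CD4 difference of 1.03 ± 0.45. The Foxp3 interaction of 1.17 ± 0.57 was not called. Its mean stayed lower in CD8 cells, where the 3 allogeneic values were 0.35, -0.59 and -0.29, against 3.50 and 2.97 in allogeneic CD4 cells.

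Cytokine genes showed 3 positive (Csf1, Il21 and Osm) and 1 negative interaction (Lta) among 18 tested. The share called was 22.2%, against 12.2% of all features. With single arrays left out there were 3 to 5 positive calls (5 without syngeneic CD8 array 3) and 1 to 3 negative ones (3 without the second allogeneic CD4 array). Csf1, the growth factor of macrophages, had 2.52, 2.23 and 2.22 in allogeneic CD8 cells, against -3.24, -4.01 and -5.45 in syngeneic CD8 cells, where 1 of 3 arrays was well above background. Allogeneic CD4 cells had 1.77 and 1.50, against -0.87 and -0.29 in syngeneic CD4 cells. On the allogeneic CD4 arrays 1 of 2 was well above background. Csf1 rose in both subsets, by 6.56 ± 0.42 in CD8 and 2.21 ± 0.51 in CD4 cells, with an interaction of 4.34 ± 0.66 (adjusted p = 0.00228) that was 2.61 with a common signal floor. Il21, a helper cytokine, was not well above background in syngeneic CD8 cells and at least 37.5-fold higher in allogeneic ones, and rose by 3.27 ± 0.49 in CD4 cells. Its interaction of 3.61 ± 0.64 became 0.37 with a common floor and -0.16 after normexp background correction, neither called. Lta, lymphotoxin alpha, fell in both subsets, by 2.21 ± 0.12 in CD8 cells and by 0.89 ± 0.15 in CD4 cells (interaction -1.33 ± 0.19, adjusted p = 0.00174). Il2 and Il10 had interactions of -1.23 ± 0.67 and 1.85 ± 0.79 that were not called.

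Of 24 cytokine receptors, 4 had a positive interaction (Il2ra, Il2rb, Il10ra and Il12rb1) and 3 a negative one (Il7r, Ifngr1 and Il15ra). The share called was 29.2%, against 12.2% of all features. The positive count was 2 without any of 5 single arrays (allogeneic and syngeneic CD8 arrays 1 and 2, and syngeneic CD4 array 2). Il12rb1, a chain of the IL-12 receptor, rose by 3.33 ± 0.17 in CD8 cells and 1.54 ± 0.21 in CD4 cells (interaction 1.79 ± 0.27, adjusted p = 0.00221). Ifngr1, the binding chain of the interferon gamma receptor, had 5.94, 6.07 and 5.94 in allogeneic CD8 cells, against 5.91, 6.29 and 6.17 in syngeneic CD8 cells, and 6.72 and 6.29 in allogeneic CD4 cells, against 5.32 and 5.12 in syngeneic CD4 cells. The CD8 groups overlapped and the CD4 groups did not, with syngeneic CD4 cells the lowest. It rose by 1.28 ± 0.18 in CD4 cells and had an interaction of -1.42 ± 0.23 (adjusted p = 0.00316). Cish, a feedback inhibitor induced by STAT5, rose by 2.49 ± 0.16 in CD8 cells and 1.06 ± 0.20 in CD4 cells (interaction 1.43 ± 0.26, adjusted p = 0.00564). Il2rb, the shared chain of the IL-2 and IL-15 receptors, rose by 2.44 ± 0.21 and 1.30 ± 0.26 in the same order (interaction 1.15 ± 0.34, adjusted p = 0.0461).

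The interferon gamma response list had negative interactions in 4 of 30 tested members (Iigp1, Cxcl9 and Tgtp1 among them) and positive ones in 0. The share called, 13.3%, was near the 12.2% of all features. The negative count was 2 without the second syngeneic CD4 array. Without the second allogeneic CD4 array it was 5, and 4 interactions were then called positive. The Tgtp1 interaction of -1.97 (adjusted p = 0.0480) was lost without any of 9 of the 10 arrays (highest 0.154, without the second syngeneic CD4 array). The type I interferon list had 1 negative call (Ifi44) among 26 (3.85%). That list had 3 negative calls without the first and 3 positive ones without the second allogeneic CD4 array. Iigp1, a GTPase of defence against intracellular parasites, had 0.63, 0.70 and 0.34 in allogeneic CD8 cells, against 0.56, 0.88 and 0.58 in syngeneic CD8 cells, and 2.36 and 2.08 in allogeneic CD4 cells, against 0.40 and 0.60 in syngeneic CD4 cells. Allogeneic CD4 cells alone were high, by 1.72 ± 0.19, and the interaction was -1.84 ± 0.25 (adjusted p = 0.00128), with -1.85 on the first slide and -1.87 on the second. Ifi44 rose by 3.31 ± 0.49 in CD4 cells, and its interaction of -2.73 ± 0.63 (adjusted p = 0.0168) was lost without the first syngeneic CD4 array (0.0797). Oas1a, a sensor of viral RNA, rose in both subsets (3.33 ± 0.22 in CD8, 2.36 ± 0.27 in CD4 cells), and its interaction of 0.97 ± 0.35 was not called.

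Cxcl9, a chemokine induced by interferon gamma and made chiefly by myeloid cells, had -1.69, -2.01 and -0.70 in allogeneic CD8 cells, against 0.51, 1.02 and 1.89 in syngeneic CD8 cells, and 1.46 and -0.09 in allogeneic CD4 cells, against -3.51 and -2.82 in syngeneic CD4 cells. It fell in CD8 cells by 2.60 ± 0.47 and rose in CD4 cells by 3.85 ± 0.57 (interaction -6.46 ± 0.74, adjusted p = 0.000413). No groups of a subset overlapped. Macrophage markers were also higher on allogeneic than on syngeneic CD4 arrays. On CD8 arrays the groups overlapped, and the list's median CD8 difference was 0.22. Their summed level, in multiples of the 75th percentile, was 9.68 to 16.2 on allogeneic and 11.9 to 22.4 on syngeneic CD8 arrays, but 177 to 186 on allogeneic and 42.8 to 74.5 on syngeneic CD4 arrays. On the allogeneic CD4 arrays 18 of 20 markers were well above background on both arrays and only Trem2 on neither, while on the allogeneic CD8 arrays Ccl2, Mertk and Trem2 were at background throughout.

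All 18 tested macrophage markers had a negative interaction. It was called for Apoe, Lyz1 and Lyz2 (16.7%, against 6.8% of all features). These 3 markers fell in CD8 cells and had no called difference in CD4 cells, where 3 other markers rose. Only 1 marker was called without the first syngeneic CD4 array, the second allogeneic CD4 array or syngeneic CD8 array 3. Apoe had -2.78 ± 0.57 (adjusted p = 0.00992). The interactions of Lyz1 and Lyz2 (-3.69 ± 0.97 and -2.24 ± 0.66) were lost without any of 3 and 8 single arrays, with highest adjusted p of 0.128 and 0.165, both without the first syngeneic CD4 array. The Apoe interaction was lost with array weights (adjusted p = 0.0682). B cell markers had a summed level of 5.1 to 7.82 in allogeneic and 20.7 to 34.2 in syngeneic CD8 cells, against 13.5 to 13.7 in allogeneic and 49.1 to 107 in syngeneic CD4 cells, and 0 of 13 tested had a called interaction. The part of these cells in the interferon results and in other negative interactions was not tested. In sorted bulk samples, fewer cells of a type and less RNA per cell cannot be told apart.

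**Figure D4:**
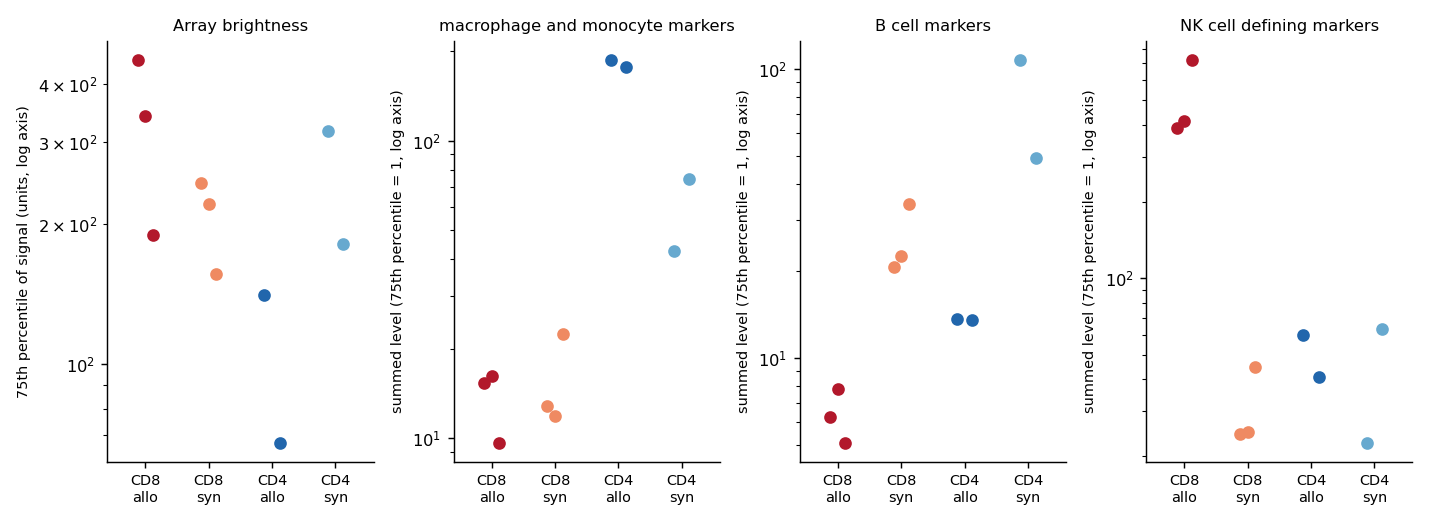
Points are the 10 splenic arrays, allogeneic and syngeneic CD8 cells followed by allogeneic and syngeneic CD4 cells, on log axes. The first panel gives the 75th percentile of the signal in units (67.6 to 450), and the others the summed level of macrophage, B cell and NK cell markers in multiples of that percentile: macrophage markers are highest on the allogeneic CD4 arrays (177 to 186) and NK markers on the allogeneic CD8 arrays (390 to 718), where Gzma and Eomes make up nearly all of the sum (5.63 to 7.1 without them).

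Receptors first known from natural killer cells had 11 positive interactions among 22 tested (50%, against 5.41% of all features) and 0 negative ones. Positive were Cd160, Klra8, Klra9, Klrb1a, Klrb1b, Klrb1c, Klrc1, Klrc3, Klre1, Klrg1 and Klrk1. These families hold near-identical genes, and their probes may share signal. Their median transplant difference was 1.08 in CD8 cells and -0.04 in CD4 cells. The count was 5 without the second syngeneic CD4 array, 6 with the 10 splenic arrays alone, and 2 where every array had to be well above background. Klrc3, a chain of the NKG2 family, had 1.53, 1.86 and 2.00 in allogeneic CD8 cells, against -3.61, -3.67 and -2.54 in syngeneic CD8 cells, and -1.06 and -1.45 in allogeneic CD4 cells, against -3.26 and -1.53 in syngeneic CD4 cells. Allogeneic CD8 cells stood far above the rest (interaction 3.93 ± 0.62, adjusted p = 0.00278).

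The summed level of 12 markers that define NK cells was 390 to 718 in allogeneic and 24.3 to 44.9 in syngeneic CD8 cells, against 40.9 to 59.5 in allogeneic and 22.5 to 63.3 in syngeneic CD4 cells. That list includes Gzma and Eomes, which T cells also express and which had called interactions of their own. Without these 2 genes, a choice made after seeing the values, the summed level of the other 10 was 5.63 to 7.1 in allogeneic and 6.07 to 22 in syngeneic CD8 cells, against 29.8 to 32.7 in allogeneic and 15 to 60.4 in syngeneic CD4 cells. The remaining sum was low on all 3 allogeneic CD8 arrays, which overlapped the syngeneic CD8 arrays and lay below every CD4 array. Ncr1, the activating receptor NKp46, was at background on all allogeneic CD8 and CD4 arrays, and Cma1 and Khdc1a on all 10 arrays. Of 9 tested NK markers, 4 (Gzma, Klrb1c, Klra8 and Klra9) had a called positive interaction and 1 (Eomes) a negative one. The share called was 55.6%, against 12.2% of all features. Klrb1c, Klra8 and Klra9 are among the 10 markers of the reduced sum, which does not show them singly. The positive count was 2 without the first syngeneic CD4 array and 1 with the 10 splenic arrays alone. The part of NK cells in the receptor results was not tested.

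In another set of genes the interaction came from CD4 cells or from both subsets moving apart. Zbtb16, which encodes PLZF, the factor of NKT and other innate-like T cells, had -3.04 and -4.40 in allogeneic CD4 cells, well above background on 1 of 2 arrays, against 1.97 and 2.15 in syngeneic CD4 cells. In CD8 cells it had -1.11, -1.10 and -0.65 after allogeneic transplantation, against -4.04, -4.01 and -3.29 after syngeneic transplantation. It thus fell by 5.78 ± 0.49 in CD4 cells and rose by 2.83 ± 0.40 in CD8 cells, with no overlap in either (interaction 8.61 ± 0.64, adjusted p = 2.79e-05, and 7.94 on the first slide and 9.55 on the second).

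Klrb1a, Klrb1c and Il17rb were well above background on both syngeneic CD4 arrays and on 0 allogeneic ones. Klrb1a, of the NKR-P1 family, was at least 5.48-fold lower in allogeneic than in syngeneic CD4 cells and at least 5.67-fold higher in allogeneic than in syngeneic CD8 cells (interaction 7.56 ± 1.04, adjusted p = 0.00134). Klrb1c (NK1.1) was at least 7.79-fold lower in allogeneic CD4 cells, and its interaction of 5.31 ± 1.26 was lost without the second syngeneic CD4 array (adjusted p = 0.0654). Il17rb, a chain of the IL-25 receptor, was at least 22-fold lower in allogeneic CD4 cells, and its interaction of 6.32 ± 1.41 was lost without the same array (0.0532). Il17rb passed the filter through syngeneic CD4 cells alone, the group where it was high. With a common signal floor the interaction was 3.01 for Klrb1a, 2.24 for Klrb1c and 4.21 for Il17rb. Each was still called, but arrays below the floor then have no spread, so these calls add no support. With probes averaged per gene the Klrb1c interaction (adjusted p = 0.0563) and the Il17rb interaction (0.0526) were lost. In the list of PLZF-type innate-like genes, 7 of 19 tested had a positive interaction (Zbtb16, Klrb1c, Il17rb, Cxcr6, Ccr6 and Slamf1 among them) and 0 a negative one. The share called positive was 36.8%, against 5.41% of all features. Not all of them had the CD4 form. Cxcr6 rose in both subsets, further in CD8 cells, and Ccr6 and Slamf1 rose in CD8 cells with no called change in CD4 cells. The positive count was 5 without the second syngeneic CD4 array and 3 where every splenic array had to be well above background.

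Of 19 apoptosis regulators tested, 2 (10.5%) had a called interaction, in opposite directions, against 12.2% of all features. With single arrays left out there were 1 to 3 positive calls (3 without the first allogeneic CD4 array) and 1 to 2 negative ones (2 without the second). Bcl2l11, which encodes the pro-apoptotic BIM, rose in CD8 cells by 0.95 ± 0.14 and fell in CD4 cells by 0.78 ± 0.17 (interaction 1.72 ± 0.22, adjusted p = 0.000725). Bbc3, which encodes the pro-apoptotic PUMA, fell in CD8 cells by 0.91 ± 0.26 and rose in CD4 cells by 1.20 ± 0.32 (interaction -2.10 ± 0.41, adjusted p = 0.00841). Another Bcl2l11 probe, the one used where every splenic array had to be well above background, gave a Bcl2l11 interaction of 0.36 (adjusted p = 0.682). The Bbc3 interaction was lost after normexp background correction (adjusted p = 0.0621), with the 10 splenic arrays alone (0.0513) and with array weights (0.054).

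The costimulation list had 3 positive interactions (Tnfsf4, Slamf1 and Slamf7) and 1 negative one (Tnfsf8) among 17 tested. The share called was 23.5%, against 12.2% of all features. With single arrays left out there were 2 to 5 positive calls (5 without allogeneic CD8 array 3) and 1 to 2 negative ones (2 without any of 3 allogeneic arrays). Tnfsf8 (CD30 ligand) had 2.26, 2.61 and 2.72 in allogeneic CD8 cells, against 2.77, 2.88 and 3.29 in syngeneic CD8 cells, and 4.81 and 5.15 in allogeneic CD4 cells, against 2.80 and 3.26 in syngeneic CD4 cells. Allogeneic CD4 cells stood above every other array (rise of 1.95 ± 0.27, interaction -2.40 ± 0.35, adjusted p = 0.00194). Tnfsf4 (OX40 ligand) was not well above background in syngeneic cells of either subset. It was at least 22.7-fold higher in allogeneic CD8 cells and at least 1.2-fold higher in allogeneic CD4 cells, where 1 of 2 arrays measured it (interaction 3.95 ± 0.82, adjusted p = 0.0109). Slamf1, a self-ligand receptor of the SLAM family, rose by 2.00 ± 0.16 in CD8 cells and had a CD4 difference of 0.52 ± 0.20, not called (interaction 1.48 ± 0.26).

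Oxidative phosphorylation had 4 positive interactions of 36 tested (Atp5j, Cycs, Ndufb8 and Sdhb), cholesterol synthesis 4 of 23 (Idi1, Fdft1 and Nsdhl among them) and glycolysis 2 of 21 (Slc16a3 and Eno3), with 0 negative ones in each. These are 11.1%, 17.4% and 9.52% of the tested members, against 5.41% of all features called positive. These counts moved with single arrays. Without the first allogeneic CD4 array they were 9, 7 and 8 in the same order of lists. The first 2 lists had 0 calls without the first syngeneic CD4 array, glycolysis had 1 without the second, and each list had 0 with the 10 splenic arrays alone. Ribosomal protein genes had 7 negative interactions among 37 tested (18.9%, against 6.8% of all features). That count was 0 without the first syngeneic CD4 array, 18 without allogeneic CD8 array 3, and 0 after quantile normalization, after normexp and with the 10 splenic arrays alone.

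The T-cell receptor list had 1 positive call of 22 (4.55%, against 5.41% of all features), Fyn, a kinase of early receptor signalling. The Fyn interaction of 1.02 (adjusted p = 0.0439) was lost without any of 9 of the 10 arrays (highest 0.112, without the first syngeneic CD4 array). The immediate early list had 0 calls of 25, against 12.2% of all features. Without the second allogeneic CD4 array the T-cell receptor list had 2 negative calls, and the immediate early list 2 positive and 1 negative.

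The largest positive interactions among genes with a symbol were mostly signals that appeared in allogeneic CD8 cells. Tmem273, a little-studied transmembrane protein, had 0.94, 0.82 and 1.51 in allogeneic CD8 cells and was not well above background in syngeneic CD8 cells (-5.91, -6.23 and -6.01). Allogeneic CD4 cells had -0.91 and -1.22, against 0.87 and 1.26 in syngeneic CD4 cells. It was at least 36.4-fold higher in allogeneic CD8 cells and fell by 2.13 ± 0.35 in CD4 cells (interaction 9.27 ± 0.45, adjusted p = 1.27e-06). Epdr1, an ependymin-related protein, was at least 103-fold higher in allogeneic CD8 cells, and Tmprss6, a membrane serine protease of iron regulation in liver, at least 115-fold.

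Ptpn5, a tyrosine phosphatase best known in neurons, was at least 40.3-fold and Nudt11, a diphosphoinositol polyphosphate hydrolase, at least 48.4-fold higher in allogeneic CD8 cells. Ptpn5 had 0.27 and 0.35 in allogeneic CD4 cells, against -0.46 and 0.06 in syngeneic CD4 cells, so syngeneic CD8 cells alone lacked a measured level, while Nudt11 was not well above background in either CD4 group. Signals near background also shrink under normexp correction with its offset: the interaction was then 4.83 for Zbtb16, 2.83 for Klrb1a, 1.70 for Il2ra and 1.95 for Csf1, each still called. Where a group was below background the size of the interaction rests on signals with no measured level. With a common floor it was 5.72 for Tmem273, 5.05 for Epdr1, 5.25 for Tmprss6, 3.23 for Ptpn5 and 4.00 for Nudt11. Each was still called, but arrays below the floor then share 1 value with no spread, so these calls add no support. Tmprss6 and Nudt11 passed the filter through allogeneic CD8 cells alone, the group where they were high. Rhoc and Abcb9, also among the 15 largest, depended on the allogeneic CD4 arrays. The Rhoc interaction was 6.73 ± 1.89, and 3.18 without the first and 10.3 without the second of them. The Abcb9 interaction was 5.98 ± 1.52, and 3.15 and 8.81 in the same cases. Another Rhoc probe, used where every splenic array had to be well above background, gave 1.14. The Rhoc call was lost without any of 7 single arrays (highest adjusted p = 0.115) and the Abcb9 call without any of 3 (highest 0.0841).

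The largest negative interactions came from signals lost in allogeneic CD8 cells or gained in allogeneic CD4 cells. Among those lost were Mab21l3, at least 21.1-fold lower in allogeneic CD8 cells, Apol7c, at least 15.7-fold lower, and Cd207, which encodes langerin of dendritic cells, at least 11.3-fold lower. Clec4b2, a C-type lectin, was at least 5.85-fold lower and Slc6a19, an amino acid transporter, fell by 4.16 ± 0.42. Mab21l3 had -6.83, -6.71 and -6.08 in allogeneic CD8 cells, which is not well above background, against -0.43, -0.87 and 0.58 in syngeneic CD8 cells. Mab21l3 and Clec4b2 passed the filter through syngeneic CD8 cells alone, the group where they were high. Mab21l3 was not well above background in either CD4 group. With a common floor its interaction of -8.22 became -2.26, that of Apol7c became -1.83, that of Cd207 -1.36, that of Slc6a19 -2.63 and that of Clec4b2 -0.47, the last not called. Dendritic cell markers had a summed level of 104 to 499 in allogeneic and 506 to 1081 in syngeneic CD8 cells, against 509 to 728 in allogeneic and 420 to 726 in syngeneic CD4 cells. Their part in these values was not tested. Of 14 tested dendritic cell markers, 7 fell in CD8 cells and 3 in CD4 cells. Only 1 (7.14%, against 12.2% of all features) had a called interaction, Clec10a, which was positive. The Clec10a call was lost without the second syngeneic CD4 array (adjusted p = 0.0711).

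Gained in allogeneic CD4 cells were Sln, which encodes the calcium pump regulator sarcolipin (at least 12.9-fold higher), Fn1, which encodes fibronectin, and Dcn, the matrix proteoglycan decorin. Dcn had 0.16 and -0.18 in allogeneic CD4 cells, against -4.25 and -5.17 in syngeneic CD4 cells, where 1 of 2 arrays was well above background, and stood at -3.32 or lower on all 6 CD8 arrays (interaction -5.10 ± 0.65, adjusted p = 0.000746). Fn1 had -0.76 and 2.81 in allogeneic CD4 cells and was at background in every other group, and its interaction of -6.58 ± 1.88 was lost without any of 7 single arrays (highest adjusted p = 0.167, without the first syngeneic CD4 array). Pcsk1, a prohormone convertase, rose by 3.78 ± 0.62 in CD4 cells (interaction -5.09 ± 0.80, adjusted p = 0.00272). With a common floor the interactions of Dcn, Sln, Pcsk1 and Fn1 were -2.50, -1.96, -3.33 and -3.53, the last not called (the Fn1 interaction had an adjusted p of 0.2). Macrophage markers, given above, were likewise highest on the allogeneic CD4 arrays, and their part in these values was not tested.

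Of the 161 genes named by rule, 110 had a called interaction. When each of the 10 arrays was left out in turn, 71 of the 110 were called every time. Leaving aside the second slide alone, 52 of the 110 (36 positive and 16 negative) kept call and direction in every alternative that tested them. There were 27 such alternatives, but only 69 of the 110 were tested where all 10 splenic arrays had to be well above background. On the second slide alone, where limma called 0 interactions in any feature (3134 at an unadjusted p under 0.05), the values of all 110 had the direction of the whole set, of which those arrays are a part.

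**Figure D5:**
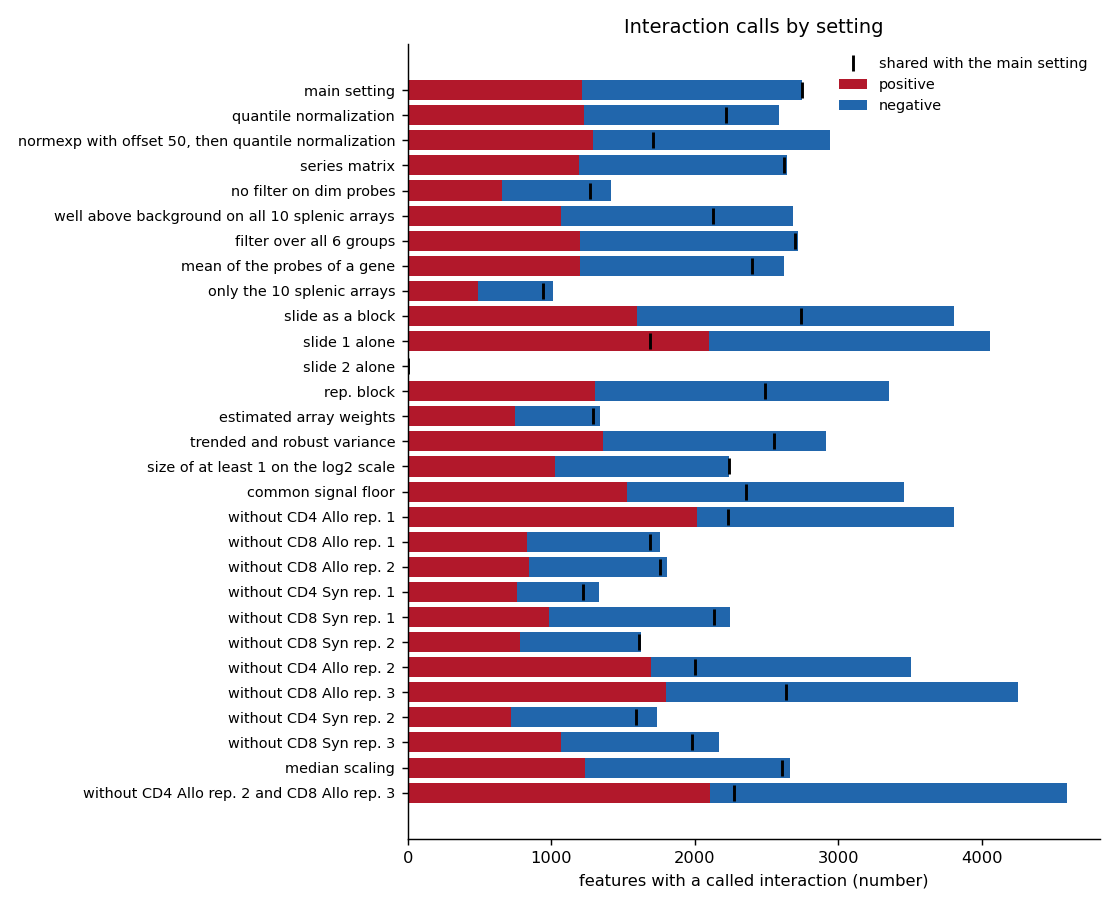
Bars give the number of features with a called positive (red) and negative (blue) interaction under each processing setting or with the named arrays left out, and black ticks the number shared with the 2745 calls of the main setting. The count ran from 0 (second slide alone) to 4597 (without allogeneic CD4 array 2 and allogeneic CD8 array 3).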

How the data were processed

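Arrays were 1-colour Agilent mouse arrays. Per the file headers, the authors read spot intensity with Agilent Feature Extraction 11.5.1.1, which deposited a background-subtracted processed signal per spot. From it each intensity was turned into log2 and scaled by subtracting the array's 75th percentile over non-control spots. The authors' deposited value table, taken as log2 values centred per gene, followed the same scaled arrays (lowest r = 0.99982, array medians -0.344 to 0.494) and served as an alternative. Spots flagged as outliers were left out. Genes were named through RefSeq (GRCm38.p6): 27656 of 55681 probes matched, and the other 28025 stayed unnamed. A gene with several probes was read from its brightest one, by mean over the 10 splenic arrays. Of 35 further probes of the called named genes, 2 had the opposite sign (Mcf2l and Nsdhl). Sizes could differ widely: a further probe gave 0.52 for Il17rb, 1.13 for Klrb1c, 1.03 for Il1rl1 and -0.02 for Rpl23. Others lay near or above the value given, such as 3.05 for Ube2c and 2.39 for Mki67.

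A linear model with 1 mean for each of 6 groups was fitted to all 16 arrays with limma 3.58.1 (R 4.3.3), which gave 10 residual degrees of freedom, and p-values were adjusted over all 22477 features by Benjamini and Hochberg. A probe was kept where every array of at least 1 splenic group was well above background. A fold against a group not well above background is a lower bound, taken against the higher of the array's lowest well-measured signal and the probe's own. The common floor setting raised every signal to the highest of those array floors. Arrays below that floor then had the same value and no spread. In simulated data, 68, 66 and 66 of 22477 features were given interactions of 1, 2 and 4 on the log2 scale. Of these 4.41%, 51.5% and 89.4% were called, and 7 unchanged features were called. Far fewer features were changed there than the 12.2% called in the data, and the noise was drawn independently for each feature and array. The adjusted p threshold was therefore reached less easily, and these rates are not those of the real comparison.

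The comparison, the gene lists and the genes were chosen with earlier results of these data known. Named by rule were the 15 largest called interactions in each direction among well-measured genes with a symbol, up to 4 genes of each of 34 lists with the smallest p, and a fixed set of T-cell genes. Other called list members, Nkg7, Il2rb, Cdk1, Bub1b, Rfc4 and E2f1 among them, were named after their values were seen. All 4 groups lay on both slides, and all arrays shared 1 scan date. Alternatives covered normalization, filters, probes, slides, array weights and each array left out. Some genes that the rule names are not reported here.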

Additional observations from a re-analysis of the deposited data

Results flagged for a closer look

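For 11 of the genes reported here the transplant difference was called in both subsets with opposite sign, and the difference between subsets was itself tested as the interaction in limma. Higher after allogeneic transplantation in CD8 cells and lower in CD4 cells were Tmem273 (interaction 9.27), Zbtb16 (8.61), Klrb1a (7.56), Cd160 (6.16) and Bcl2l11 (1.72). Lower in CD8 cells and higher in CD4 cells were Mab21l3 (-8.22), Cxcl9 (-6.46), Slc6a19 (-6.36), Exoc3l4 (-6.12), Cxcr4 (-2.39) and Bbc3 (-2.1). Of these, Mab21l3, Slc6a19 and Exoc3l4 were not well above background in syngeneic CD4 cells, so the CD4 side of their values rests on signals with no measured level. Mab21l3 was also not well above background in allogeneic cells of either subset. The same limit held for Klrb1a in syngeneic CD8 and allogeneic CD4 cells, Tmem273 in syngeneic CD8 cells and Cd160 in allogeneic CD4 cells. Zbtb16 was well above background on 1 of 2 allogeneic CD4 arrays. Another Bcl2l11 probe gave an interaction of 0.36. With a common signal floor the interaction of Exoc3l4 was -0.70 and that of Slc6a19 was -2.63.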

How the results depend on the processing

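The count of called interactions, 2745, moved by over 1.5 times without a filter on dim probes (1416), with the 10 splenic arrays alone (1015), with array weights (1342) and with allogeneic CD4 array 2 and allogeneic CD8 array 3 left out together (4597, chosen after seeing the data). On the second slide alone, with 5 arrays, limma called 0 (3134 at an unadjusted p under 0.05). Leaving out each array in turn gave 1332 to 4249 calls: 1332 without the first and 1734 without the second syngeneic CD4 array, 1758, 1803 and 4249 without allogeneic CD8 arrays 1, 2 and 3 in turn, and 1628 without the second syngeneic CD8 array. The share of positive calls, 44.3%, was 55.8% with array weights and 57.4% without the first syngeneic CD4 array. With the replicate number as a block there were 3354 calls. Deviations of same-numbered arrays correlated between -0.275 and 0.455, mostly positive, which does not settle whether these arrays pair. Quantile normalization gave 2584, normexp 2943, the authors' values 2643, median scaling 2663 and the slide as a block 3806.

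Directions reversed for few genes. After normexp these were Il21 (-0.157), Rps14 (0.111), Rpl19 (0.327), Derl3 (-0.04) and Foxp3 (-0.0173). The Cd3e interaction reversed after quantile normalization (0.201) and on the second slide (0.271), and with single arrays left out it ran from -0.317 to 0.0259, above 0 without allogeneic CD8 array 1 and without syngeneic CD4 array 1 (0.0213). The Cxcr3 interaction reversed on the first slide (0.0908), with array weights (0.343) and with 2 arrays left out (0.0149), and ran from -0.26 to 0.231 with single arrays left out, above 0 in 4 of 10 cases. The Cd8a interaction reversed on the first slide (-0.045) and ran from -0.55 to 1.06 with single arrays left out. The Bank1 interaction reversed with the filter on all 10 arrays (-0.346) and on the second slide (-1.31), and ran from -0.435 to 3.86 with single arrays left out. On the second slide Ebf1 (-0.307), Vpreb3 (-0.68) and Gp1bb (0.0974) also reversed. With single arrays left out Vpreb3 ran from -0.234 to 1.41 and Havcr2 from -0.502 to 1.91. Cflar reversed with the mean of probes (0.21) and Derl3 with a common floor (-0.257). The cause of these moves was not tested, except that the second slide and the left-out settings hold fewer arrays.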
